A study of Arabidopsis thaliana with 11 samples.

Results

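The cytochrome P450 genes described here are the 23 Arabidopsis genes that the annotation of the ATH1 array pairs with a probe set of their own under a symbol such as CYP71B15. They were found among 13350 genes that this annotation names from probe sets with exactly 1 gene, and each of the 23 was read from a single probe set. The RefSeq annotation TAIR10.1 holds 236 genes with such a symbol, so the 23 are 9.75% of them and are no sample of the whole family. All 23 matched a RefSeq gene, and 19 belong to the CYP71B subfamily, which has 36 genes in RefSeq. The others are CYP51G2, CYP78A9, CYP79A2 and CYP84A4. A probe set paired with both CYP71B19 and CYP71B20 was left out because its signal cannot be divided between these genes, and CYP718 was left out because its symbol carries no subfamily letter.

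Labeled RNA was measured in root protoplasts of Columbia Col-0 plants on 11 arrays, 6 of cells transfected with 35S::GR::bZIP1 (4tU-bZIP1) and 5 of cells transfected with the empty vector pJD385_35S::GR (4tU-EV), each a biological replicate. The 35S promoter is broadly active across cell types, and the expression was transient, in protoplasts of whole roots sorted by their red fluorescence. The GR part holds bZIP1, a transcription factor of nitrogen and carbon signaling, in the cytoplasm, and dexamethasone lets it enter. By the labels, both groups received 20 mM KNO3 and NH4NO3 for 1 h 40 min (longer in the study's methods), 35 µM cycloheximide for 20 min to block translation, 10 µM dexamethasone for 5 h, and 1.5 mM 4-thiouracil (4tU) with 0.2 mM uracil for 20 min, and RNA that had taken up 4tU was pulled down. The values are GCRMA intensities on the linear scale, and the lowest intensity in the table is 4.92. Replicate 1 of 4tU-bZIP1 differed from the rest: its median correlation to the other arrays was 0.879, against 0.943 to 0.966 for every other array, and 6643 of its probe sets reached an intensity of 32, against 7228 to 7594. Of 18 markers of root cell types and leaf mesophyll, 3 are named by the annotation. The cortex marker AT1G62500 stood at the lowest intensity on all arrays, EXPA7 of root hair cells was at 55.0 in 4tU-bZIP1 replicate 1, at 4.94 or less in the rest of 4tU-bZIP1 and at 5.18 or less in 4tU-EV, and the mesophyll gene RCA was at 8.12 or less on all arrays, so the root cell types in the samples could not be checked with these genes.

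Cytochrome P450s are enzymes with a heme group bound through a cysteine, and most plant members add 1 oxygen atom to a substrate with electrons that a reductase passes on from NADPH. Most plant members sit in the membrane of the endoplasmic reticulum, and P450s make or break down hormones, sterols, lignin precursors, surface lipids and defense compounds. Their names give the family by number, the subfamily by letter and the gene by a second number, and genes of a subfamily often lie side by side on a chromosome as the product of repeated duplication. The CYP71B genes are a large plant subfamily of this kind, and most of its members have no assigned substrate.

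Most of the P450 genes gave little or no labeled signal in these cells. Of the 23, 6 had the same lowest value on all arrays and another 12 never reached an intensity of 16 on any array, the highest of their values being 13.6. The 6 are 26.1% of the 23, where 10.2% of all probe sets other than controls had 1 value on all arrays. A mean equal to 16 or more was found for 17.4% of the 23 and 37% of all named genes, so most named genes were below it as well. The mean on the log2 scale was equal to an intensity of 32 or more for CYP71B6, CYP71B5 and CYP71B21, which is 13% of the 23 genes, against 28.3% of all 13350 named genes and 32.3% of all 22746 probe sets other than controls. Only CYP71B6 was above 32 on every array. Intensities of different probe sets depend on their probes, so the genes are not ranked by level, and a probe set at the lowest value may be one that does not report its transcript well.

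The 4 families with a single gene among the 23 were dim. CYP84A4, which acts on phenylpropanoid aldehydes on the way to arabidopyrones, had intensities of 13.4, 13.4, 13.5, 32.7, 13.4 and 12.7 in 4tU-bZIP1 replicates 1 to 6, against 17.0, 23.6, 13.4, 40.8 and 12.7 in 4tU-EV replicates 1 to 5. The same value of 13.4 stood on replicates 1, 2 and 5 of 4tU-bZIP1. In both groups replicate 4 was the highest array, and the groups overlapped. CYP78A9, whose overexpression enlarges fruits and seeds, was at 7.72 in 4tU-bZIP1 replicate 4 and at the lowest intensity on the other arrays. CYP51G2, which RefSeq lists as a transcribed pseudogene related to the sterol demethylase CYP51G1, was at 6.15 in 4tU-bZIP1 replicate 1 and at no more than 4.99 on the other arrays. CYP79A2, which turns phenylalanine into the aldoxime for benzylglucosinolate, was at the lowest value of the table on all 11 arrays.

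Among the CYP71B genes, CYP71B6 (AT2G24180, chromosome 2) gave a clear signal on all arrays. Its product has been shown to act on indole-3-acetonitrile, a step toward indole-3-carboxylic acid in the indole metabolism of Arabidopsis. The intensities were 175, 539, 627, 581, 563 and 434 in 4tU-bZIP1 replicates 1 to 6, against 708, 684, 723, 566 and 396 in 4tU-EV replicates 1 to 5. The low values were those of 4tU-bZIP1 replicate 1 and 4tU-EV replicate 5, and the ranges of the groups overlapped. The 6 arrays of 4tU-bZIP1 averaged 487 ± 165 and the 5 of 4tU-EV averaged 615 ± 137 (mean ± SD). Without replicate 1 the mean of 4tU-bZIP1 was 549 ± 71.7 (SD, n = 5).

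CYP71B5 (AT3G53280) is a CYP71B gene of chromosome 3 with no substrate given here. It had intensities of 34.5, 53.5, 103, 28.8, 152 and 53.6 in 4tU-bZIP1 replicates 1 to 6, against 89.2, 46.6, 82.7, 139 and 62.0 in 4tU-EV replicates 1 to 5. Both groups varied widely, 5.26-fold between the lowest and the highest array in 4tU-bZIP1 and 2.97-fold in 4tU-EV. The highest array of all was in 4tU-bZIP1 and the next in 4tU-EV.

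CYP71B21 (AT3G26190) also lies on chromosome 3. Its intensities were 10.9, 31.3, 41.1, 22.4, 29.1 and 47.5 in 4tU-bZIP1 replicates 1 to 6, against 36.9, 29.6, 38.4, 80.9 and 47.9 in 4tU-EV replicates 1 to 5. The lowest value was again that of 4tU-bZIP1 replicate 1, and the highest was that of 4tU-EV replicate 4, which was also the highest 4tU-EV array for CYP71B5 and CYP84A4.

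CYP71B26 and CYP71B23 had weaker signals. CYP71B26 (AT3G26290) was at 24.2 and 17.3 in 4tU-bZIP1 replicates 3 and 6 and at 7.19 or less in the rest of that group, against 7.19 to 8.64 in 4tU-EV, so it passed an intensity of 16 on 2 arrays of 4tU-bZIP1 and on none of 4tU-EV. The same value of 7.19 stood on 6 arrays. CYP71B23 (AT3G26210) had 9.95, 5.31, 8.54, 6.05, 4.92 and 5.33 in 4tU-bZIP1 replicates 1 to 6, against 9.36, 7.95, 10.7, 11.3 and 5.67 in 4tU-EV replicates 1 to 5. These values lie near the lowest of the table, and the groups overlapped.

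**Figure D1:**
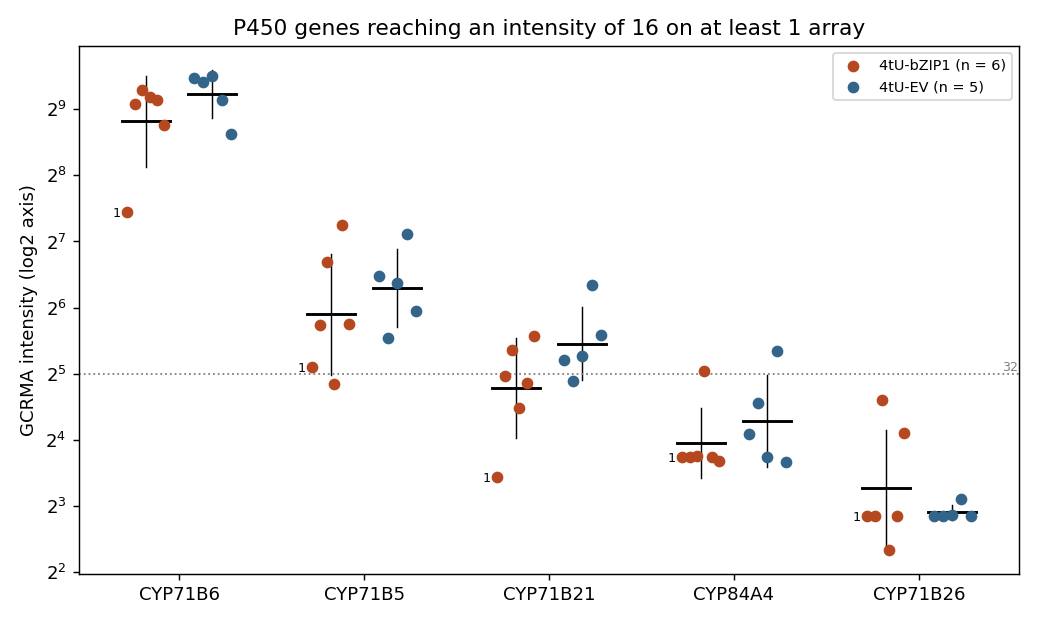
Intensity (log2 axis) of the 5 P450 genes that reached 16 on at least 1 array, with 1 point per array, 4tU-bZIP1 at the left and 4tU-EV at the right of each gene; thick lines are means of log2 values, thin lines 1 SD, the dotted line an intensity of 32, and the digit 1 marks 4tU-bZIP1 replicate 1. The groups overlap for each gene, and 4tU-bZIP1 replicate 1 is the lowest array for CYP71B6, at 175, and CYP71B21, at 10.9.

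In the RefSeq order of genes, 17 of the CYP71B genes fall into 3 runs, 1 of 11 genes from CYP71B16 to CYP71B37 on chromosome 3, 1 of 3 genes from CYP71B5 to CYP71B31 on the same chromosome, and 1 of 3 genes from CYP71B27 to CYP71B29 on chromosome 1. The runs also hold 7 P450 genes (the longest run) and 1 P450 gene (the run of chromosome 1) that were not analysed here. The intensities along the runs are given as a description of each probe set, since a difference between probe sets may lie in their probes. In the longest run CYP71B21 alone had a mean of 32 or more. Its direct neighbor CYP71B22 was at the lowest value on all arrays, as were CYP71B16 and CYP71B36 of the same run, and the other members never reached 16 except CYP71B26. CYP71B34 and CYP71B35, direct neighbors in this run, reached at most 6.11 and 6.31. In the run of CYP71B5, the direct neighbor CYP71B30P, whose name marks it as a pseudogene and which RefSeq lists as protein-coding, was at 4.94 or less on all arrays. CYP71B31, which oxidizes the flower monoterpenol linalool, was at the lowest value on all arrays. In the run of chromosome 1, CYP71B28 and CYP71B29 reached at most 7.99 and 5.70, and CYP71B27, listed as a transcribed pseudogene, was at 13.6 in 4tU-bZIP1 replicate 1 and at 8.18 or less on the other arrays. CYP71B38, which lies alone on chromosome 3, was at the lowest value throughout.

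**Figure D2:**
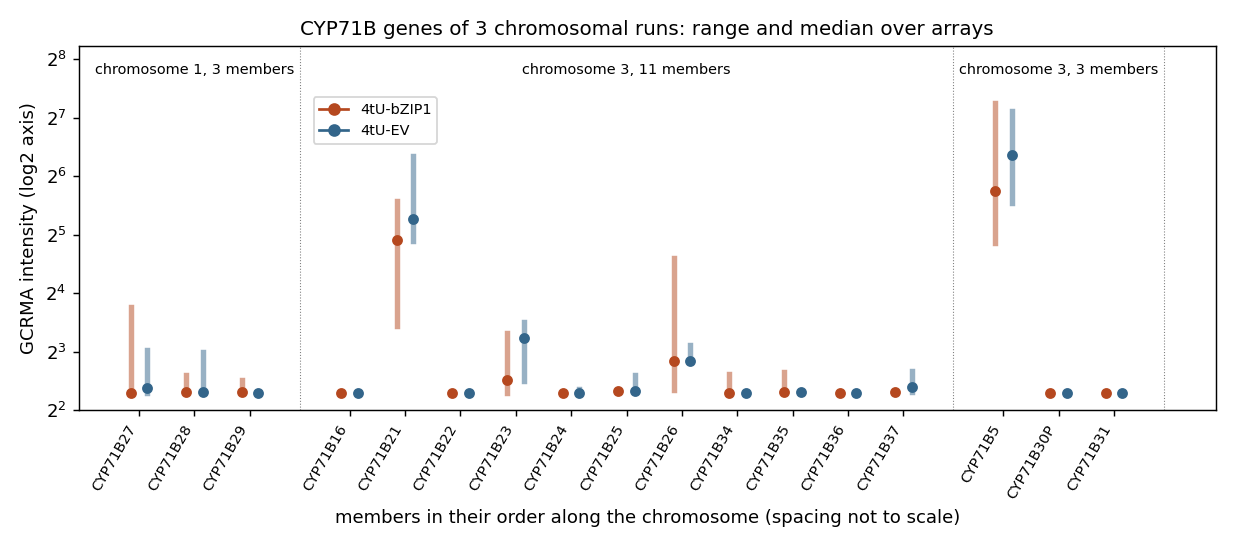
Intensity (log2 axis) of the 17 CYP71B genes of 3 chromosomal runs in their order along the chromosome; bars span the lowest to the highest array and points are medians, for 4tU-bZIP1 (n = 6) at the left and 4tU-EV (n = 5) at the right of each gene. The 2 groups overlap for each gene whose value varied, and heights of different genes are not comparable because they come from different probe sets.

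No P450 gene was called between 4tU-bZIP1 and 4tU-EV. The question was whether nuclear bZIP1 changes the labeling of these transcripts, and limma was run on log2 intensities of 19514 features, and a gene was called where the Benjamini-Hochberg adjusted p was under 0.1. The 17 P450 genes whose value varied entered the test, and 0 were higher and 0 lower, where the test called 0.164% of all features as higher and 0.0205% as lower, 0.184% in either direction. Unadjusted p-values under 0.05 were found for 0 P450 genes in each direction, where 1.51% of all features were higher and 3.23% lower at that level, 4.75% in either direction. The one-way test of the study's methods, run on the same values, called 25 of the 19514 features and 0 P450 genes. The study joined this test with a rank product, which was not repeated, so its full procedure was not run on these genes. The arrays of the groups overlapped for all 17, as they did not in 0.405% of the features (4tU-bZIP1 above) and 0.451% (4tU-bZIP1 below). With so few P450 genes, such shares leave less than 1 gene to be found. The means of log2 values were higher in 4tU-bZIP1 for 8 genes and lower for 9, and their log2 fold changes had a median of -0.013 (quartiles -0.33 and 0.057), where all features had 0.0014 (quartiles -0.20 and 0.14). The 12 tested genes that never reached 16 are counted in this median, and their small changes are differences near the lowest value.

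The 3 genes with a mean of 32 or more had a lower mean in 4tU-bZIP1, by amounts within the spread of the arrays. The log2 fold change of CYP71B6 was -0.41 (95% interval -1.16 to 0.33, limma adjusted p = 0.847, two-sided exact permutation p = 0.273), with 5 of 6 arrays below the mean of 4tU-EV. For CYP71B5 it was -0.40 (interval -1.42 to 0.63, limma adjusted p = 0.847, exact permutation p = 0.413), with 4 of 6 arrays below. CYP71B21 showed -0.67 (interval -1.55 to 0.21, limma adjusted p = 0.847, exact permutation p = 0.136), with 5 of 6 arrays below. The intervals hold both no change and a fall by 1 on the log2 scale. Of the 6997 features tested that have a mean of 32 or more, 62.4% were lower on average in 4tU-bZIP1 and the median change was -0.12 (log2), so the direction of these 3 genes is also the commoner one among bright features.

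Single arrays moved these values. Without 4tU-bZIP1 replicate 1 the log2 fold change was -0.14 for CYP71B6 (interval -0.55 to 0.27), -0.24 for CYP71B5 (interval -1.32 to 0.84) and -0.41 for CYP71B21 (interval -1.09 to 0.28), each smaller than with it. CYP71B5 was moved as much by other arrays, to -0.19 without 4tU-bZIP1 replicate 4 or 4tU-EV replicate 4 and to -0.67 without 4tU-bZIP1 replicate 5. For CYP71B21 the value was -0.45 without 4tU-EV replicate 4 and -0.83 without 4tU-bZIP1 replicate 6. For CYP71B6 it was -0.565 without 4tU-EV replicate 5, larger than on all arrays. Without 4tU-bZIP1 replicate 1 the median of all bright features was -0.081, and 59.5% of them had a lower mean in 4tU-bZIP1. The array with the fewest probe sets at 32 or more, 6643, had the lowest CYP71B6 intensity. Within 4tU-EV the fewest, 7304, were those of replicate 5, which had the lowest CYP71B6 intensity of that group. In 4tU-bZIP1, however, replicate 3 had fewer still, 7228, and the highest CYP71B6 intensity of its group, 627. The root hair marker EXPA7 was high in 4tU-bZIP1 replicate 1 alone, at 55.0, and its log2 fold change was 0.57 with this array and -0.014 without it. The part of array brightness and of root hair cells in the CYP71B6 and CYP71B21 values was not tested. In bulk samples, fewer cells of a type and less RNA per cell cannot be told apart.

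**Figure D3:**
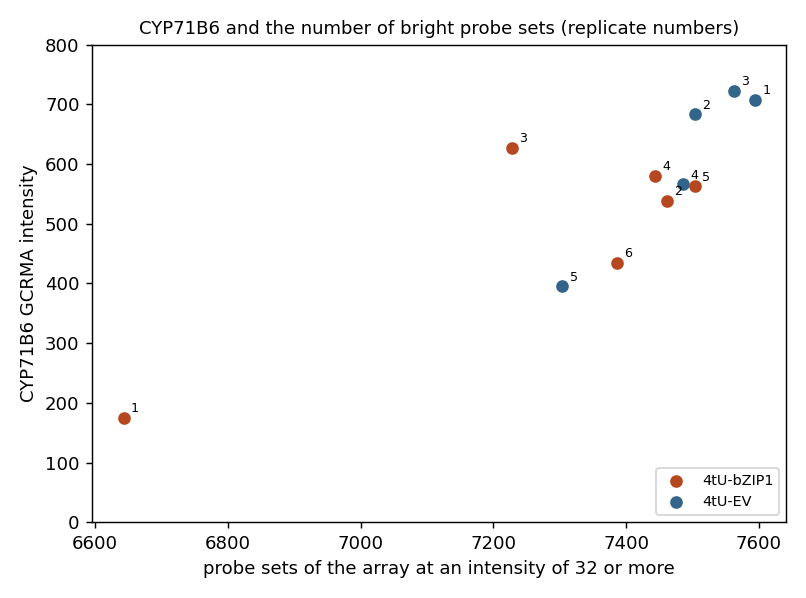
CYP71B6 intensity of each array against the number of probe sets of that array at an intensity of 32 or more, with 4tU-bZIP1 and 4tU-EV in different colors and the replicate number beside each point. The array of 4tU-bZIP1 replicate 1 stands apart at 6643 probe sets and an intensity of 175, and the other 10 arrays lie between 396 and 723.

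Among the dimmer genes, CYP71B23 had a log2 fold change of -0.44 (interval -0.98 to 0.094, limma adjusted p = 0.847, exact permutation p = 0.110) and CYP84A4 one of -0.33 (interval -1.13 to 0.46, limma adjusted p = 0.847). The CYP84A4 value was -0.065 without 4tU-EV replicate 4 and -0.55 without 4tU-bZIP1 replicate 4, the highest array of each group. Leaving out 4tU-bZIP1 replicate 1 took CYP71B23 to -0.57 (interval -1.07 to -0.067, limma adjusted p = 0.866), so this gene, unlike the brighter 3, changed more without that array. CYP71B26 showed the largest positive value, 0.36 (interval -0.50 to 1.22, limma adjusted p = 0.847), which comes from its 2 higher arrays of 4tU-bZIP1 and was 0.096 to 0.55 when 1 array was left out. In CYP71B37 all 6 arrays of 4tU-bZIP1 were at the same value of 4.93, against 4.93 to 6.35 in 4tU-EV. Its log2 fold change was -0.12 (interval -0.253 to 0.0205, limma adjusted p = 0.847, exact two-sided permutation p = 0.0606), a difference near the lowest value of the table. The remaining 10 genes had log2 fold changes between -0.056 and 0.11.

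**Figure D4:**
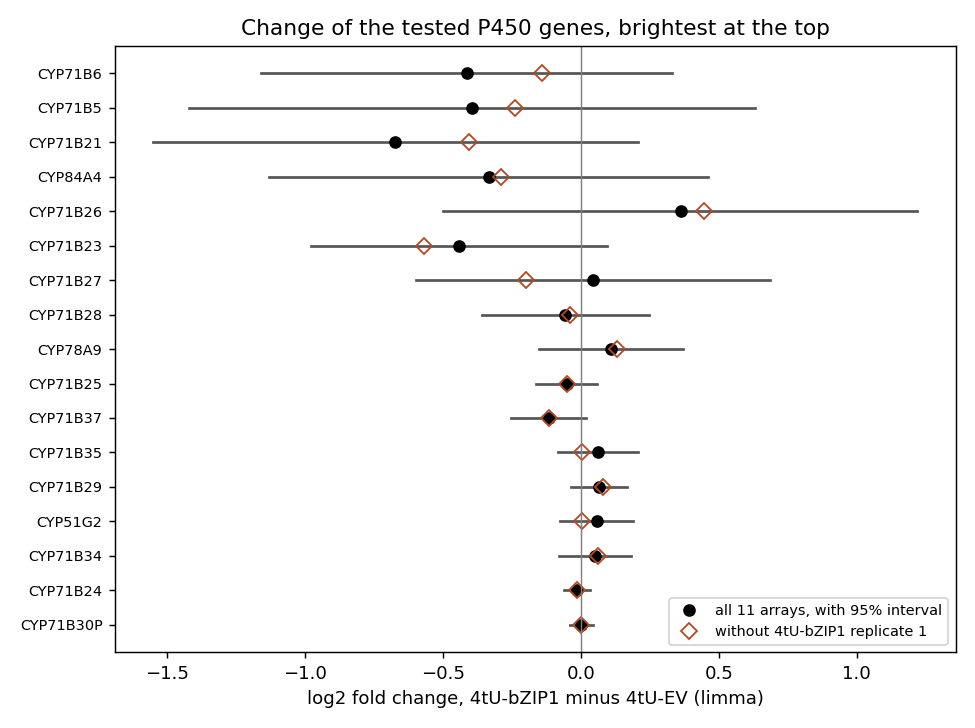
Log2 fold change of the 17 tested P450 genes, 4tU-bZIP1 minus 4tU-EV, with the brightest gene at the top; filled points and lines are the limma estimate and its 95% interval on all 11 arrays, and open diamonds are estimates without 4tU-bZIP1 replicate 1. Every interval on all arrays includes 0, and the estimates of CYP71B6, CYP71B5 and CYP71B21 move toward 0 without that array.

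Genes that act beside these P450s were also little covered. Lists of 12 P450 pathways (hormones, sterols, indole compounds, glucosinolates, lignin, surface lipids, triterpenes and organ growth) name 80 P450 genes, of which CYP79A2, CYP84A4 and CYP78A9 are among the 23. None of 31 P450 genes known under another symbol, such as C4H or PAD3, is named by the annotation. Of 102 partner genes in the lists, among them the P450 reductases ATR1 and ATR2, 4 are named and 3 were tested, and 0 were called. UGT74B1, the glucosyltransferase of glucosinolate synthesis, averaged 218 ± 164 over the 6 arrays of 4tU-bZIP1 and 177 ± 41.2 over the 5 of 4tU-EV (intensity ± SD, log2 fold change 0.045, interval -0.96 to 1.04, limma adjusted p = 0.998). HCT, which makes the shikimate ester that a P450 of lignin synthesis hydroxylates, averaged 248 ± 96.5 in 4tU-bZIP1 and 228 ± 57.9 in 4tU-EV, with a log2 fold change of 0.094 (interval -0.49 to 0.68, limma adjusted p = 0.948). In both genes 4tU-bZIP1 replicate 1 was the highest array, at 531 for UGT74B1 and 439 for HCT, and without it the direction turned, with log2 fold changes of -0.27 and -0.085. GSTU20, a glutathione transferase of the glucosinolate list, was at 6.43 or less on all arrays. BCAT4, an aminotransferase that starts methionine chain elongation, was at the lowest value on all of them.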

How the data were processed

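RNA from the 4tU pull-down was amplified by the authors, measured on ATH1 arrays and normalized by GCRMA (version not given in the sources used here). The deposited values are intensities on the linear scale, 1 column per array. They were log2-transformed with no pseudocount. Of 22810 probe sets, 64 controls, 2312 with 1 value on all arrays (within rounding of log2 values), 503 paired with several genes and 330 unnamed ones with a suffix of shared sequence were left out, with some probe sets in more than 1 of these classes. The probe set with the highest mean was taken per gene, which left 19514 features, 11760 of them named. Groups were compared with limma 3.58.1 in R 4.3.3 (lmFit, eBayes), tested on simulated data first. Exact permutation tests used all 462 divisions of the arrays, so the smallest p is 0.0022. Other steps used Python 3.11.15. The rank product of the methods was not repeated. The P450 genes and lists were chosen with earlier results of these data known. Genes named are those past the threshold, up to 12 per direction with an unadjusted p under 0.05, the 12 with the highest mean and up to 3 per pathway list, and the remaining P450 genes were named after their values were seen. The number of arrays limits the precision. UGT74C1 was left out because its symbol and code could not be matched.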

Additional observations from a re-analysis of the deposited data

Results flagged for a closer look

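A single array stood far from the rest of its group, by Dixon's criterion on log2 values, in 15 of 27 groups of arrays with any spread. Chance flags about 1 in 20 such groups of independent normal values. Some of these groups hold many arrays at the lowest intensity or at another repeated value, where 1 array above it is enough. Of the 15, 13 had a value under 16.

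CYP71B6 in 4tU-bZIP1 replicate 1 was the lowest, at 175, where the other arrays of that group had 434 to 627. CYP84A4 in 4tU-bZIP1 replicate 4 was the highest, at 32.7, where the other arrays had 12.7 to 13.5.

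The other flags were single arrays above the rest of a dim group, at values from 4.94 to 13.6. In 4tU-bZIP1 replicate 1 these were CYP71B27 at 13.6, CYP71B35 at 6.31 and CYP51G2 at 6.15. In 4tU-bZIP1 replicate 2 they were CYP71B25 at 5.06 and CYP71B30P at 4.94, in replicate 4 CYP78A9 at 7.72, and in replicate 6 CYP71B34 at 6.11. In 4tU-EV replicate 5 they were CYP71B28 at 7.99, CYP71B25 at 6.04 and CYP71B24 at 5.13, in replicate 4 CYP71B26 at 8.64 and CYP71B27 at 8.18, and in replicate 3 CYP71B35 at 4.99.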

How the results depend on the processing

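No P450 gene passed an adjusted p under 0.1 (or 0.05) in any of the alternatives run. These were median centring, quantile normalization, the methods' one-way test, and limma with trend and robust prior or with array weights. The rest were a minimum mean of 5, a floor of 16, all or only named probe sets, the replicate block and each array left out. At 0.1 few features were called at all, from 0 with the replicate block to 93 of 19514 with array weights. Such shares leave little to be found among so few P450 genes. At an unadjusted p under 0.05, array weights gave 2 lower genes, CYP71B23 (-0.75 on the log2 scale, limma adjusted p = 0.19) and CYP71B6 (-0.35, limma adjusted p = 0.56), where 4.86% of all features were lower at that level, and the fits without 1 array gave 0 to 1, with 1 without 4tU-bZIP1 replicate 1 or 4tU-EV replicate 2, 4 or 5, where 2.61% to 4.21% of all features were lower over the 11 fits. The median log2 fold change was 0.037 after centring, -0.41 with a minimum mean of 5 on the log2 scale and -0.40 with a floor of 16, where 3 and 5 genes were left, and -0.039 to 0.0019 without 1 array. The 3 genes with a mean of 32 or more were 4 at 16, 1 at 100, and 2 to 3 without 1 array. The sign of values near 0 turned for CYP71B27 (-0.072) and CYP71B28 (0.051) with array weights and, without 1 array, for CYP71B27 (-0.20 to 0.18), CYP71B28 (-0.10 to 0.084) and CYP71B25 (-0.065 to 0.0019). A replicate block over replicates 1 to 5 left the median at -0.026, and 0 P450 genes and 0 features were called, against 28 features on the same arrays without the block, an alternative chosen after seeing the data. Same-numbered arrays correlated at 0.011 to 0.11 in their deviations, and 0 of 5 arrays of 4tU-EV correlated best with their own number. With so few arrays, these values cannot decide whether same-numbered arrays were prepared together.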
